A study of Mus musculus with 10 samples.

Results

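Fmo2, Gpt, Kctd2 and Npnt are 4 of the 9779 mouse genes measured in both deposited expression tables of this study of inflamed skin. They were chosen by their measured pattern: low after imiquimod with DMSO, and near the untreated level when benzamil was given with imiquimod. All 3 contrasts between the groups therefore went into the choice, so the levels and fold changes of these genes are given as a description, with no test. Among the 5245 genes that passed a filter on low counts and were tested, 445 (8.48%) were called lower in DMSO over untreated. In benzamil over DMSO 520 (9.91%) were called higher, 183 met both, and 163 of those were not called in benzamil over untreated. The 4 genes are among the 163, which is what the choice fixed, and both comparisons use the same DMSO libraries. Their place among the 163 is therefore no test of them, and it rests in part on single untreated libraries. Without untreated library 1, the log2 fold change in DMSO over untreated moved from -2.28 to -1.16 for Gpt and from -3.22 to -2.33 for Kctd2. Without untreated library 2 it moved from -3.41 to -2.30 for Npnt.

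RNA came from skin, labelled ear, of c57/Bl6 mice, 6 to 8 weeks old. The benzamil and DMSO groups were treated on the skin for 6 days. The benzamil group (4 libraries) received imiquimod, a Toll-like receptor agonist that inflames mouse skin, and benzamil, which is related to amiloride and closes epithelial sodium channels. The DMSO group (4 libraries) received imiquimod with the solvent DMSO. The untreated group (2 libraries) received neither, so DMSO over untreated holds imiquimod and solvent together, and the dose of benzamil is not given in the sources used here. The sample labels say ear for every library, while the series' design text places the untreated control on the back. Comparisons with untreated skin may therefore also hold body site, which cannot be told apart from treatment there. Nothing says that the libraries of a group came from separate animals, so p-values below measure only how these samples vary, and that variation may be technical.

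The 4 genes belong to unrelated pathways. Fmo2 encodes a flavin-containing monooxygenase, a membrane enzyme of the endoplasmic reticulum that uses NADPH and oxygen to oxidise nitrogen and sulphur atoms in drugs and other foreign compounds, best known from lung. Gpt encodes the cytosolic alanine aminotransferase, which moves the amino group of alanine to alpha-ketoglutarate and so links alanine with pyruvate and glutamate. Kctd2 encodes a small protein with a BTB domain, of a family whose members hand substrates to the Cullin-3 ubiquitin ligase. Npnt encodes nephronectin, a secreted matrix protein that binds integrin alpha8-beta1; in mouse skin, hair follicle stem cells deposit it in the basement membrane where the arrector pili muscle attaches.

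In the mm10 annotation (GENCODE M21) the 4 protein-coding genes lie on 4 chromosomes. Fmo2 spans chr1:162874317-162898726 on the minus strand and Npnt chr3:132881745-132950291 on the minus strand. Gpt spans chr15:76695716-76699686 on the plus strand and Kctd2 chr11:115420128-115431274 on the plus strand. The snRNA gene Gm23196 lies inside Npnt on the opposite strand, and Mfsd3 begins within 2000 bases of the 3′ end of Gpt; neither is among the genes present in both tables.

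RefSeq promoter windows (build GRCm38.p6, 250 bases before to 50 after the start site, minus-strand genes written on their own strand) were matched for 3 of the 4 genes, Fmo2, Kctd2 and Npnt. They are shown because 3 genes with the same order of levels over the groups have start regions that differ in base composition. Capitals mark each CpG. The windows are chr1:162898709-162899008 (minus strand) for Fmo2, chr11:115419876-115420175 (plus strand) for Kctd2 and chr3:132950242-132950541 (minus strand) for Npnt; Fmo2 and Npnt have 2 listed starts, of which the most 5′ is shown.
Fmo2: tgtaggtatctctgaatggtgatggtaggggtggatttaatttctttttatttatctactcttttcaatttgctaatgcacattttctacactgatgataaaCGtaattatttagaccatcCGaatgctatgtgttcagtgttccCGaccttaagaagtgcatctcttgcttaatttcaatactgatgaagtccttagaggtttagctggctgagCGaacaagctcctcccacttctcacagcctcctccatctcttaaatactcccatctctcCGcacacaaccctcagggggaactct
Kctd2: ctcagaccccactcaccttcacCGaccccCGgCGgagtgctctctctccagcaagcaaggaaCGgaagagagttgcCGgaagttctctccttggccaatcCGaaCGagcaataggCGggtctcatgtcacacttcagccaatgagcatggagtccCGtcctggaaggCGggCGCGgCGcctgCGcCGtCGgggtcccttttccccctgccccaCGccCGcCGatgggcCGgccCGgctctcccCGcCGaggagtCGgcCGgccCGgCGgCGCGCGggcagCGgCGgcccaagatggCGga
Npnt: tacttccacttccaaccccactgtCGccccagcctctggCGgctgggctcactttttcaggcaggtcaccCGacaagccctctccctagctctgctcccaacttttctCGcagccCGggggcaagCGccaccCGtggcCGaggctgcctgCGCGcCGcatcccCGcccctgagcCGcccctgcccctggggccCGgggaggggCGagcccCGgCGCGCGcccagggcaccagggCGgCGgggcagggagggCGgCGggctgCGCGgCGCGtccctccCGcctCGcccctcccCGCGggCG

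The Fmo2 window held 5 CpG at 41.3% GC, and 38.0% of the 32851 mouse promoter windows held fewer CpG. The Kctd2 window held 33 CpG at 69.7% GC, more than 91.4% of windows. The Npnt window held 32 CpG at 76.7% GC, more than 90.5% of windows. The median window held 7 CpG at 52.7% GC, so Kctd2 and Npnt start in CpG-rich sequence and Fmo2 does not.

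Both strands of these windows were searched for 12 short motifs, and no motif was found in all 3. Fmo2 held 1 match to the C/EBP pattern TTNNGCAA, at -84 from the start site, which 10.8% of all windows hold. Kctd2 held 2 CCAAT boxes (CCAAT), at -156 and -113, a motif found in 37.4% of windows. It also held 1 match to GCGTG, the xenobiotic response element core, at -39, which 32.4% of windows hold. Npnt held 4 GC boxes (GGGCGG), at -88, -77, -19 and -2, found in 35.7% of windows, and 1 match to the nuclear receptor motif AGGTCA, at -188, found in 16.3%. None of the 3 windows held the letters of the TATA box (TATAAA), AP-1 (TGANTCA), cAMP response element (TGACGTCA), E-box (CACGTG), antioxidant response element core (TGACNNNGC), STAT (TTCNNNGAA) or NF-kB motifs. These matches are descriptions of letters in a window, not binding sites.

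Reads assigned to the joined genes numbered 138440 to 375455 in benzamil libraries, 259262 to 935714 in DMSO libraries and 71144 to 74614 in untreated libraries. Levels below are CPM (counts scaled to a common library size) after TMM scaling, which adjusts each library's total for composition. A single read was worth 2.87 to 7.53 CPM in benzamil, 0.985 to 3.48 CPM in DMSO and 12.8 to 14.1 CPM in untreated libraries. Libraries were made with a 3′ kit, so levels are not divided by gene length and are not compared between genes. The summed level of the inflamed keratinocyte markers (Krt6a, Krt6b, Krt16, Krt17, Sprr1b, S100a8, S100a9) separated the groups. It was 1246 to 9426 CPM in benzamil, 17810 to 28251 CPM in DMSO and 268 to 345 CPM in untreated libraries. Of the 7 markers 6 were called lower in benzamil over DMSO. Krt16 was not called there (edgeR adjusted p = 0.0949). At 2951 CPM in benzamil library 4, Krt16 lay above its DMSO range of 1869 to 2496 CPM. Sprr1b had 0 reads in untreated skin.

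Fmo2, the drug-oxidising monooxygenase, had 129, 57.0, 164 and 67.8 CPM in benzamil libraries 1 to 4, against 7.88, 7.68, 17.4 and 10.5 CPM in DMSO libraries 1 to 4 and 153 and 84.6 CPM in untreated libraries 1 and 2. The reads behind these levels were 45, 18, 26 and 9 with benzamil, 8, 3, 5 and 4 with DMSO, and 12 and 6 in untreated skin. The lowest benzamil library, library 2, was above the highest DMSO library, library 3, and the benzamil and untreated ranges overlapped. Means were 104.6 ± 51.1 CPM with benzamil (SD, n = 4), 10.9 ± 4.55 CPM with DMSO (SD, n = 4) and 119 ± 48.6 CPM in untreated skin (SD, n = 2). The benzamil mean was 87.9% of the untreated mean and the DMSO mean 9.14% of it. In the edgeR fit over all 5245 tested genes, the log2 fold change of Fmo2 was 3.35 ± 0.40 (SE) in benzamil over DMSO, rank 1 from the top. It was -3.56 ± 0.62 in DMSO over untreated, rank 28 from the bottom, and -0.21 ± 0.49 in benzamil over untreated.

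Gpt, the alanine aminotransferase, had 101, 94.96, 152 and 181 CPM in benzamil libraries 1 to 4, against 20.7, 23.0, 20.9 and 29.0 CPM in DMSO libraries 1 to 4 and 166 and 56.4 CPM in untreated libraries 1 and 2. The reads were 35, 30, 24 and 24 with benzamil, 21, 9, 6 and 11 with DMSO, and 13 and 4 in untreated skin. The DMSO libraries lay close together, below every benzamil and untreated library, and both benzamil extremes fell on either side of the untreated mean. Means were 132 ± 41.3 CPM with benzamil (SD, n = 4), 23.4 ± 3.86 CPM with DMSO (SD, n = 4) and 111 ± 77.5 CPM in untreated skin (SD, n = 2). Gpt was the only one of the 4 genes whose benzamil mean was above its untreated mean, at 119% of it, while the DMSO mean was 21.0% of it. Its log2 fold change was 2.42 ± 0.32 (SE) in benzamil over DMSO, rank 13 from the top, and -2.28 ± 0.52 in DMSO over untreated, rank 177 from the bottom. In benzamil over untreated it was 0.14 ± 0.45.

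Kctd2, the Cullin-3 adaptor family member, had 92.0, 69.6, 196 and 188 CPM in benzamil libraries 1 to 4, against 13.8, 17.9, 41.8 and 18.4 CPM in DMSO libraries 1 to 4 and 268 and 113 CPM in untreated libraries 1 and 2. The reads were 32, 22, 31 and 25 with benzamil, 14, 7, 12 and 7 with DMSO, and 21 and 8 in untreated skin. DMSO library 3 stood above the other DMSO libraries and still below the lowest benzamil library, and untreated library 1 held the highest level of all. Means were 136 ± 65.0 CPM with benzamil (SD, n = 4), 23.0 ± 12.7 CPM with DMSO (SD, n = 4) and 191 ± 109.9 CPM in untreated skin (SD, n = 2). The benzamil mean was 71.6% of the untreated mean, and the DMSO mean 12.1% of it. The log2 fold change was 2.60 ± 0.39 (SE) in benzamil over DMSO, rank 6 from the top, -3.22 ± 0.54 in DMSO over untreated, rank 49 from the bottom, and -0.62 ± 0.47 in benzamil over untreated.

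Npnt, the integrin ligand of the follicle basement membrane, had 34.5, 25.3, 50.6 and 67.8 CPM in benzamil libraries 1 to 4, against 7.88, 7.68, 3.48 and 5.26 CPM in DMSO libraries 1 to 4 and 38.3 and 113 CPM in untreated libraries 1 and 2. It had the fewest reads of the 4 genes: 12, 8, 8 and 9 with benzamil, 8, 3, 1 and 2 with DMSO, and 3 and 8 in untreated skin. Every benzamil library was above every DMSO library, the untreated libraries were both above DMSO, and untreated library 1 lay within the benzamil range. Means were 44.5 ± 18.7 CPM with benzamil (SD, n = 4), 6.08 ± 2.10 CPM with DMSO (SD, n = 4) and 75.6 ± 52.7 CPM in untreated skin (SD, n = 2). The benzamil mean was 58.9% of the untreated mean, the smallest share among the 4 genes, and the DMSO mean was 8.04% of it. The log2 fold change was 2.54 ± 0.50 (SE) in benzamil over DMSO, rank 10 from the top, -3.41 ± 0.73 in DMSO over untreated, rank 37 from the bottom, and -0.87 ± 0.62 in benzamil over untreated.

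**Figure D1:**
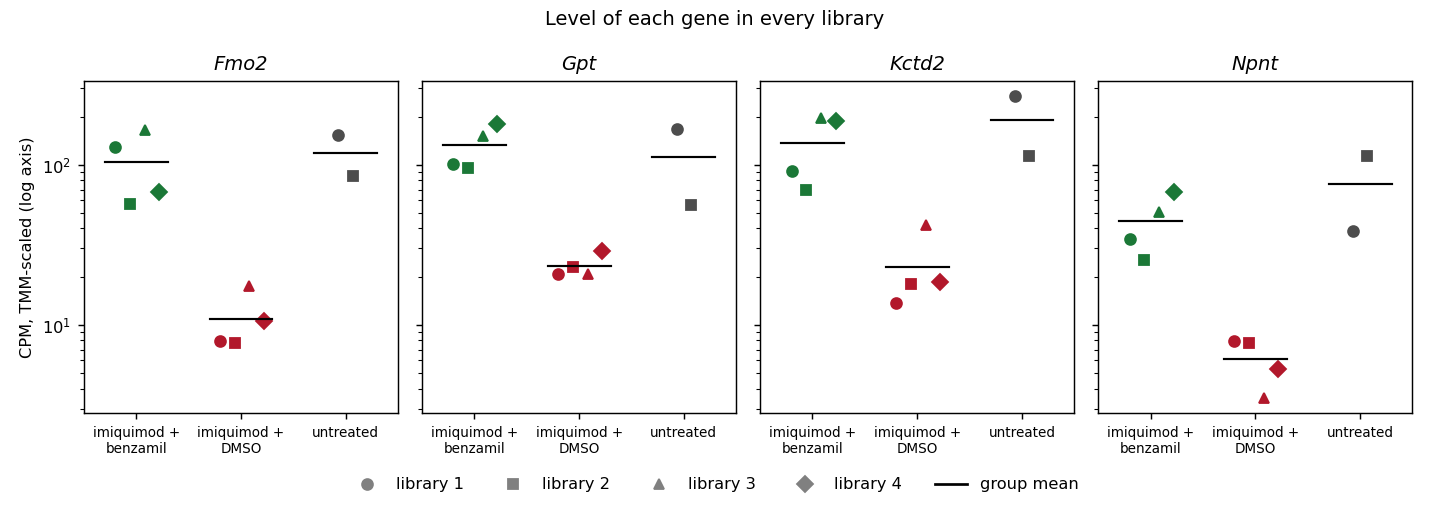
Level of Fmo2, Gpt, Kctd2 and Npnt in every library, in TMM-scaled CPM on a log axis, with symbols for library number and a line at each group mean (benzamil and DMSO n = 4, untreated n = 2). For each gene the DMSO libraries sit below all others, for example 7.68 to 17.4 CPM for Fmo2, and the benzamil and untreated points overlap.

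The order of the group means was untreated, benzamil, DMSO for Fmo2, Kctd2 and Npnt, and benzamil, untreated, DMSO for Gpt. Benzamil and untreated libraries, neighbours in that order, overlapped for all 4 genes, as the choice of genes asked. All 4 genes separated benzamil above DMSO with no overlap of libraries, as did 11.1% of tested genes, and all 4 separated DMSO below untreated, as did 18.7%. None of the 4 separated benzamil from untreated, against 19.5% of tested genes separated upward and 12.9% downward. Nothing further is read from these counts, since the same contrasts chose the genes.

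**Figure D2:**
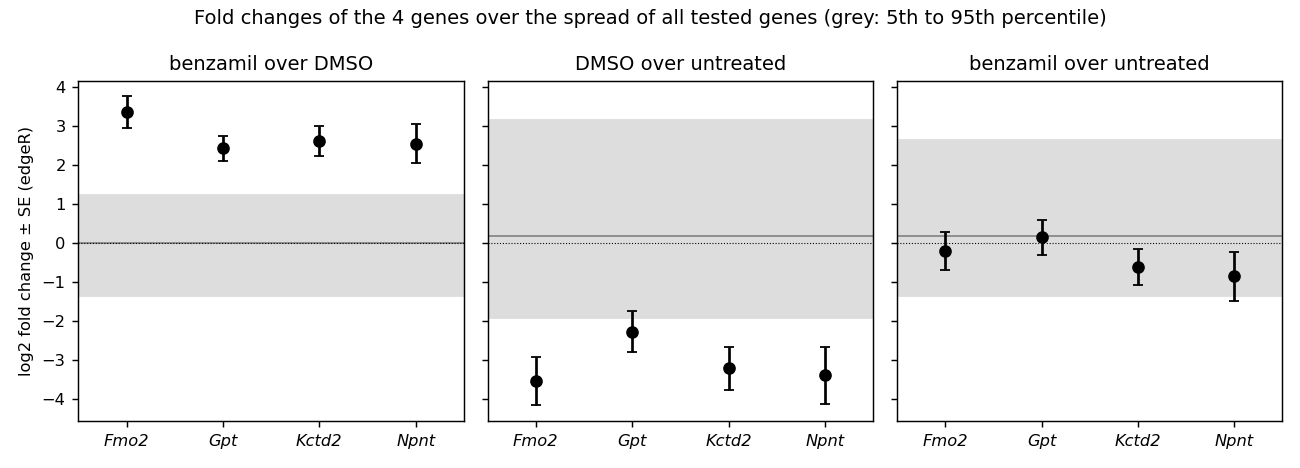
Log2 fold change (edgeR, point, with SE bars) of the 4 genes in each comparison, with the 5th to 95th percentile of all 5245 tested genes in grey and their median as a grey line. The points lie above the grey band in benzamil over DMSO (2.42 to 3.35), below it in DMSO over untreated (-3.56 to -2.28), and inside it in benzamil over untreated (-0.87 to 0.14).

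Within groups the 4 genes did not share 1 order of libraries. Benzamil library 2 was the lowest benzamil library for all 4, while the highest was library 3 for Fmo2 and Kctd2 and library 4 for Gpt and Npnt. Untreated library 1 was the higher of the 2 for Fmo2, Gpt and Kctd2, and untreated library 2 for Npnt. DMSO library 3 was highest among DMSO libraries for Fmo2 and Kctd2 and lowest for Npnt. That library held 5 Fmo2 reads and 1 Npnt read. Such orders can turn on a few reads, and their counting error was not estimated. Over all 10 libraries, Pearson's r of log2 CPM between pairs of the 4 genes was between 0.780 (Gpt and Npnt) and 0.940 (Fmo2 and Kctd2). These points share library, depth and group, and the genes were chosen for a common group pattern, so r is a description.

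Depth differed between groups, and the deepest library was a DMSO one. The effective depth after TMM was 347846 and 315921 reads in benzamil libraries 1 and 2, and 286972 to 390518 reads in DMSO libraries 2 to 4. Over these libraries of like depth the 4 genes had 18 and 45 reads (Fmo2), 30 and 35 (Gpt), 22 and 32 (Kctd2) and 8 and 12 (Npnt) with benzamil. The DMSO libraries 2 to 4 had 3 to 5, 6 to 11, 7 to 12 and 1 to 3 reads in the same order of genes. The untreated libraries, at 70895 and 78273 effective reads, have no DMSO or benzamil library of like depth, and the part of depth in the levels was not tested. All 4 genes passed the filter on low counts, whose cutoff was 34.9 CPM, but no DMSO library of Fmo2, Gpt or Npnt reached that level, and only library 3 did for Kctd2.

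The authors' deposited table for benzamil and DMSO gave log2 fold changes of 2.49 for Fmo2, the highest of its 10653 genes, 2.04 for Gpt, 2.03 for Kctd2 and 1.76 for Npnt. The authors' deposited table for untreated over DMSO, coded in that direction, gave 3.01 for Fmo2, 1.94 for Gpt, 2.73 for Kctd2 and 2.78 for Npnt. Differences of the deposited variance-stabilised log2 values were smaller, at 1.54, 1.41, 1.44 and 1.03 for Fmo2, Gpt, Kctd2 and Npnt in benzamil over DMSO, and -1.73, -1.16, -1.82 and -1.45 in DMSO over untreated. That transform draws low counts together, and all 4 genes have few reads.

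Several values moved when 1 of the 2 untreated libraries was left out. Without untreated library 1, DMSO over untreated was -2.94 for Fmo2, -1.16 for Gpt and -2.33 for Kctd2, and benzamil over untreated turned to 0.40 for Fmo2 and 0.25 for Kctd2 and was 1.24 for Gpt and -1.37 for Npnt. Without untreated library 2, Npnt was -2.30 in DMSO over untreated and 0.22 in benzamil over untreated. The small benzamil over untreated values also changed sign for Gpt, to between -0.27 and -0.03 without untreated library 2, without benzamil library 4, under totals alone or with the replicate block, and for Fmo2, to 0.06, without benzamil library 2. The direction of benzamil over DMSO and of DMSO over untreated held for all 4 genes in every alternative that gave a value. The genes were chosen for these directions and their DMSO libraries lay below all others, so nothing further is read from that.

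For each of the 4 genes, the 5 tested genes whose log2 CPM was most like it over the 10 libraries are named by Pearson's r, as a description. Closest to Fmo2 were Arl4a (r = 0.981), Daam1 (0.972), Btc (0.969), Flg2 (0.966) and Dst (0.964). Btc, which encodes the EGF-receptor ligand betacellulin, averaged 68.4 ± 35.0 CPM with benzamil, 10.2 ± 7.22 CPM with DMSO and 97.8 ± 78.5 CPM in untreated skin. Flg2, a protein of the cornified layer related to filaggrin, averaged 1415 ± 489 CPM with benzamil, 206 ± 106 CPM with DMSO and 2153 ± 172 CPM in untreated skin. Closest to Gpt were Lmo4 (0.981), Smc1a (0.980), Apoe (0.971), Cox7a2l (0.970) and Pdcd4 (0.962). Lmo4, a LIM-only transcriptional cofactor, averaged 263 ± 88.0 CPM with benzamil, 87.5 ± 10.7 CPM with DMSO and 198 ± 99.9 CPM in untreated skin, the same order as Gpt.

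Closest to Kctd2 were Agap3 (r = 0.972), Fbxo32 (0.963), Cyp2b19 (0.960), Clstn1 (0.959) and Gm26225 (0.957). Fbxo32, which encodes the ubiquitin ligase subunit atrogin of muscle wasting, averaged 74.2 ± 12.0 CPM with benzamil, 20.3 ± 6.84 CPM with DMSO and 131 ± 85.6 CPM in untreated skin. Agap3 averaged 284 ± 103 CPM with benzamil, 71.1 ± 29.6 CPM with DMSO and 260 ± 29.2 CPM in untreated skin. Closest to Npnt were Chst15 (0.960), Psme1 (0.959), Sytl1 (0.953), Ate1 (0.949) and Hnrnpr (0.945). Chst15, a sulphotransferase that acts on chondroitin sulphate chains of the matrix, averaged 26.0 ± 5.71 CPM with benzamil, 5.36 ± 1.84 CPM with DMSO and 47.4 ± 12.8 CPM in untreated skin. Psme1, a subunit of the proteasome activator, followed Npnt with a much smaller range, at 138 ± 8.38 CPM with benzamil, 99.3 ± 8.32 CPM with DMSO and 161 ± 11.3 CPM in untreated skin.

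Whether other genes of the same pathways moved was asked of 7 lists, with the 4 genes left out, with edgeR's quasi-likelihood test and a call at a Benjamini-Hochberg adjusted p under 0.05, taken over all 5245 tested genes. In benzamil over DMSO 22.0% of tested genes were called, 9.91% higher and 12.1% lower. In DMSO over untreated 18.4% were called, 9.88% higher and 8.48% lower, and in benzamil over untreated 4.04%, 2.44% higher and 1.60% lower. Median log2 fold changes over all tested genes were -0.01 in benzamil over DMSO, 0.18 in DMSO over untreated and 0.16 in benzamil over untreated.

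The list nearest to Fmo2, the other flavin monooxygenases, gave little to compare. Of the 6 listed genes only Fmo5 was in both tables, with 6 reads in benzamil, 9 in DMSO and 4 in untreated libraries, which did not pass edgeR's filter on low counts; Fmo1 was not analysed here. Without the filter Fmo5 was called neither by edgeR nor by DESeq2, while limma on the deposited log2 values called it lower in DMSO over untreated. Of 30 genes of xenobiotic and aldehyde oxidation, 14 were tested, with 3 higher and 0 lower in benzamil over DMSO, 3 higher and 3 lower in DMSO over untreated, and 1 higher in benzamil over untreated. Their medians were 0.32, -0.18 and 0.04 in the 3 comparisons, and over the alternatives the numbers called ranged over 2 to 5, 3 to 9 and 0 to 2, with 3 in DMSO over untreated without untreated library 2. Cyp2b19, a cytochrome P450 of the upper epidermis in mouse, averaged 147 ± 61.3 CPM with benzamil, 44.7 ± 16.6 CPM with DMSO and 290 ± 150.4 CPM in untreated skin. It rose in benzamil over DMSO by 1.75 ± 0.33 (edgeR adjusted p = 0.000524) and changed by -2.82 ± 0.43 in DMSO over untreated (edgeR adjusted p = 6.88e-05; -2.03 without untreated library 1). Aldh2, the mitochondrial aldehyde dehydrogenase, averaged 140 ± 22.2 CPM with benzamil, 59.2 ± 10.3 CPM with DMSO and 154 ± 17.7 CPM in untreated skin. It rose in benzamil over DMSO by 1.19 ± 0.24 (edgeR adjusted p = 0.000862) and changed by -1.36 ± 0.37 in DMSO over untreated (edgeR adjusted p = 0.0128). Leaving out untreated library 1 or 2 ended that last Aldh2 call, at edgeR adjusted p-values of 0.0698 to 0.169, as did fitting without the filter (0.0546).

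Other oxidising enzymes had other patterns over the groups. Cyp2f2, a P450 best known from mouse airway, averaged 25.5 ± 16.8 CPM with benzamil, 16.4 ± 10.0 CPM with DMSO and 89.0 ± 53.6 CPM in untreated skin. It fell in DMSO over untreated (-2.66 ± 0.76, edgeR adjusted p = 0.0159; -1.73 and 0.293 without untreated library 2, -2.04 and 0.0311 without DMSO library 1), while benzamil over DMSO was 0.79 ± 0.60 (edgeR adjusted p = 0.361). Aox4, an aldehyde oxidase, averaged 138 ± 18.0 CPM with benzamil, 134 ± 18.7 CPM with DMSO and 35.3 ± 49.9 CPM in untreated skin. It was called higher in DMSO over untreated (1.98 ± 0.59, edgeR adjusted p = 0.0195) and at 0.06 ± 0.25 in benzamil over DMSO (edgeR adjusted p = 0.892). All 5 untreated reads of Aox4 were in untreated library 2, so its fold rests on 1 library: without untreated library 1, DMSO over untreated was 1.05 (edgeR adjusted p = 0.223), and without library 2 the untreated group is at 0 reads and no fold is given. Its call in benzamil over untreated (2.04 ± 0.59, edgeR adjusted p = 0.0486) was lost in 14 of 17 alternatives, among them the omission of any 1 library except untreated library 2 (adjusted p 0.0502 to 0.280; 1.09 without untreated library 1).

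Around Gpt, none of the 21 tested genes of alanine, glutamate and pyruvate metabolism (of 35 listed) was called higher in benzamil over DMSO and 2 were called lower. In DMSO over untreated 2 were higher and 0 lower, in benzamil over untreated 1 was higher, and the medians were -0.40, 0.14 and -0.005. Over the alternatives the numbers called ranged over 1 to 3, 1 to 6 and 0 to 1; the first fell to 1 without benzamil library 3 or DMSO library 1, and the DMSO over untreated number was 1 without DMSO library 1, 2 or 4 or untreated library 1 and 5 without untreated library 2. Gpt2, the mitochondrial form of the enzyme, had 9 reads in benzamil, 21 in DMSO and 0 in untreated libraries, and did not pass the filter. Got2, the mitochondrial aspartate aminotransferase, had the opposite signs to Gpt, with 47.1 ± 23.5 CPM with benzamil, 119 ± 24.0 CPM with DMSO and 34.6 ± 30.9 CPM in untreated skin. It fell in benzamil over DMSO (-1.29 ± 0.31, edgeR adjusted p = 0.00415) and rose in DMSO over untreated (1.83 ± 0.62, edgeR adjusted p = 0.0421). The second Got2 call was lost without DMSO library 1, 2 or 4 or untreated library 1, at edgeR adjusted p-values of 0.0551 to 0.256, and with DESeq2 (0.0814). Its fold there was 1.21 without untreated library 1 and 3.36 without untreated library 2.

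Ldha, the lactate dehydrogenase subunit that turns pyruvate into lactate, averaged 641 ± 108 CPM with benzamil, 845 ± 140 CPM with DMSO and 278 ± 113 CPM in untreated skin. It rose in DMSO over untreated (1.59 ± 0.31, edgeR adjusted p = 0.000847) and in benzamil over untreated (1.19 ± 0.31, edgeR adjusted p = 0.029), and was at -0.40 ± 0.20 in benzamil over DMSO (edgeR adjusted p = 0.148). Its call in benzamil over untreated was lost without benzamil library 4 or untreated library 2, at edgeR adjusted p-values of 0.0519 to 0.164, and under totals alone or with only the groups compared (0.0531 to 0.0915). Without untreated library 1 its folds were 2.22 in DMSO over untreated and 1.797 in benzamil over untreated. Pdhb, a subunit of the pyruvate dehydrogenase complex, averaged 24.9 ± 6.89 CPM with benzamil, 53.8 ± 4.43 CPM with DMSO and 12.8 ± 18.1 CPM in untreated skin. It fell in benzamil over DMSO (-1.11 ± 0.35, edgeR adjusted p = 0.0232), a call lost without benzamil library 2 or 3 or DMSO library 1 at adjusted p-values of 0.0557 to 0.0877. The 2 untreated reads of Pdhb were in a single library.

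Of 23 other KCTD genes 7 were tested, with 3 higher and 0 lower in benzamil over DMSO, 1 higher and 1 lower in DMSO over untreated and none called in benzamil over untreated; the medians were 0.36, 0.79 and 0.88. Over the alternatives the numbers called ranged over 0 to 4, 0 to 4 and 0 to 2. In benzamil over DMSO none was called without benzamil library 1 or DMSO library 2 or by DESeq2, and 1 without benzamil library 2 or DMSO library 1. In DMSO over untreated none was called without DMSO library 1 or 4 or either untreated library, and 1 without benzamil library 2 or DMSO library 2 or 3. Kctd15, named in human studies of body weight, averaged 69.7 ± 25.8 CPM with benzamil, 40.5 ± 6.78 CPM with DMSO and 106 ± 30.5 CPM in untreated skin. It was called with Kctd2's signs, at 0.85 ± 0.30 in benzamil over DMSO (edgeR adjusted p = 0.0429) and -1.39 ± 0.48 in DMSO over untreated (edgeR adjusted p = 0.0436). These Kctd15 calls were fragile. The first was lost in 13 of 18 alternatives, among them each single omission except benzamil library 3 and the untreated libraries (edgeR adjusted p 0.0531 to 0.164). The second was lost in 11 of 18, among them the omission of benzamil library 2, any DMSO or either untreated library (edgeR adjusted p 0.0518 to 0.369).

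Kctd4 averaged 121 ± 22.4 CPM with benzamil, 68.5 ± 16.5 CPM with DMSO and 33.9 ± 11.9 CPM in untreated skin, and rose in benzamil over DMSO (0.85 ± 0.25, edgeR adjusted p = 0.0154). Kctd12, an auxiliary subunit of GABA-B receptors in neurons, averaged 71.9 ± 19.96 CPM with benzamil, 36.9 ± 21.3 CPM with DMSO and 7.05 ± 9.97 CPM in untreated skin. It rose in benzamil over DMSO as well (1.15 ± 0.37, edgeR adjusted p = 0.025). Neither gene was called in DMSO over untreated (edgeR adjusted p = 0.239 for Kctd4 and 0.224 for Kctd12), and Kctd12 had 64 DMSO reads and 1 untreated read, a depth-scaled ratio of 4.61 (95% counting interval 0.798 to 185). The Kctd4 call was lost without benzamil library 1 or DMSO library 2 (edgeR adjusted p 0.0590 to 0.0984) and under totals alone or DESeq2 (0.0549 to 0.0900). The Kctd12 call was lost without benzamil library 1 or 2 or DMSO library 1 or 2 (edgeR adjusted p 0.0560 to 0.150) and under totals alone, DESeq2 or limma (0.0794 to 0.139). Kctd1 averaged 39.7 ± 11.5 CPM with benzamil, 66.6 ± 10.8 CPM with DMSO and 13.4 ± 0.94 CPM in untreated skin, and was called higher in DMSO over untreated (2.29 ± 0.76, edgeR adjusted p = 0.0356). With 141 DMSO and 2 untreated reads, the depth-scaled ratio of DMSO over untreated was 5.07 (95% counting interval 1.38 to 42.3), and the call was lost without DMSO library 1 or 4 or either untreated library (edgeR adjusted p 0.0509 to 0.146). It was also lost with the replicate block (0.0630), with only the groups compared (0.0509) and with DESeq2 (adjusted p = 0.135).

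The closest relatives of Kctd2 gave little to compare. Kctd5 averaged 32.0 ± 11.5 CPM with benzamil, 41.9 ± 5.42 CPM with DMSO and 63.5 ± 89.8 CPM in untreated skin, with -0.31 ± 0.40 in benzamil over DMSO (edgeR adjusted p = 0.626) and -0.51 ± 0.66 in DMSO over untreated (edgeR adjusted p = 0.616). All 9 untreated reads of Kctd5 were in a single library, so its untreated mean and that last fold rest on it. Kctd17 had 20 reads in benzamil, 16 in DMSO and 2 in untreated libraries, and did not pass the filter.

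Of 23 genes of the Cullin-3 ligase core and the G-beta subunits that KCTD proteins bind, 15 were tested, and 1 was higher in benzamil over DMSO, 1 higher in DMSO over untreated and none called in benzamil over untreated. The medians were -0.05, 0.75 and 0.59, and over the alternatives the numbers called ranged over 0 to 2, 0 to 5 and 0 to 0. The first was 0 without benzamil library 1 or DMSO library 1 and 2 without either untreated library. Spop, another substrate adaptor of Cullin-3, averaged 179 ± 31.5 CPM with benzamil, 111 ± 23.2 CPM with DMSO and 132 ± 47.6 CPM in untreated skin. It rose in benzamil over DMSO (0.73 ± 0.23, edgeR adjusted p = 0.0215), a call lost without benzamil library 1 or DMSO library 1 or 2 (edgeR adjusted p 0.0757 to 0.112) and under totals alone or DESeq2 (0.0691 to 0.145). Rbx1, the RING subunit of the ligase, was called higher in DMSO over untreated (3.35 ± 0.98, edgeR adjusted p = 0.0181; 2.44 and 0.153 without untreated library 1), a call also lost with DESeq2 (adjusted p = 0.113). It rests on 159 DMSO reads against 1 untreated read, a depth-scaled ratio of 11.4 (95% counting interval 2.02 to 455).

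Around Npnt, 4 of 15 listed integrin and assembly partners were tested, and Itga8 and Egfl6, the receptor's alpha subunit and the nearest relative of Npnt, were not analysed here. None of the 4 was called higher in any comparison, and 1 was lower in each, with medians of -0.07, -0.51 and -0.94. Over the alternatives the numbers called ranged over 0 to 2, 0 to 3 and 0 to 1. Itgb1, the beta subunit shared by many integrins, averaged 98.1 ± 10.9 CPM with benzamil, 140 ± 12.1 CPM with DMSO and 146 ± 46.7 CPM in untreated skin, at -0.51 ± 0.22 in benzamil over DMSO (edgeR adjusted p = 0.093) and -0.06 ± 0.34 in DMSO over untreated (edgeR adjusted p = 0.927). Tnc, a matrix protein that also binds the same integrin, averaged 11.8 ± 7.82 CPM with benzamil, 34.9 ± 17.8 CPM with DMSO and 25.6 ± 36.1 CPM in untreated skin. It fell in benzamil over DMSO (-1.76 ± 0.56, edgeR adjusted p = 0.025), a call lost without benzamil library 1 or 3 or DMSO library 1 or 4 (edgeR adjusted p 0.0618 to 0.113) and with DESeq2 or limma (0.0518 to 0.0648). The 4 untreated reads of Tnc were in a single library.

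Fn1, fibronectin, averaged 45.7 ± 18.3 CPM with benzamil, 40.0 ± 19.9 CPM with DMSO and 171 ± 82.8 CPM in untreated skin. It fell in DMSO over untreated (-2.21 ± 0.47, edgeR adjusted p = 0.002) and in benzamil over untreated (-1.84 ± 0.48, edgeR adjusted p = 0.0287), and its benzamil mean lay near its DMSO mean. Without untreated library 1 both calls were lost (-1.47 with edgeR adjusted p = 0.172, and -1.11 with 0.345). The benzamil over untreated call was also lost without benzamil library 2 or 3 (edgeR adjusted p = 0.0526 and 0.0560) and with the replicate block (0.0527).

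The basement membrane, the sheet in which nephronectin is deposited, had 27 listed genes, of which 15 were tested, with 4 higher and 1 lower in benzamil over DMSO, 0 higher and 6 lower in DMSO over untreated, and none called in benzamil over untreated; the medians were 0.49, -1.06 and -0.51. The 6 calls in DMSO over untreated fell to 1 without untreated library 1, to 2 with no filter and to 3 with DESeq2, and were 4 to 6 in the other alternatives. The 5 calls in benzamil over DMSO were 3 without benzamil library 1, 3 or 4, DMSO library 1 or 2, or with DESeq2, and at most 6. Dst, which encodes the hemidesmosome linker BPAG1, averaged 1364 ± 323 CPM with benzamil, 458 ± 99.5 CPM with DMSO and 2130 ± 240 CPM in untreated skin. It rose in benzamil over DMSO (1.58 ± 0.22, edgeR adjusted p = 1.75e-05) and fell in DMSO over untreated (-2.23 ± 0.26, edgeR adjusted p = 1.16e-06), and both calls held in every alternative. Col7a1, the anchoring fibril collagen, averaged 40.2 ± 14.3 CPM with benzamil, 8.63 ± 4.84 CPM with DMSO and 72.9 ± 23.3 CPM in untreated skin. It rose in benzamil over DMSO (1.99 ± 0.48, edgeR adjusted p = 0.00461) and fell in DMSO over untreated (-2.92 ± 0.70, edgeR adjusted p = 0.00521; 0.138 without untreated library 1).

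Itgb4, the hemidesmosome integrin subunit, averaged 141 ± 26.1 CPM with benzamil, 89.4 ± 6.67 CPM with DMSO and 187 ± 24.9 CPM in untreated skin. It was called at 0.61 ± 0.22 in benzamil over DMSO (edgeR adjusted p = 0.0463), which was lost in 13 of 18 alternatives, among them each single omission except benzamil library 2 and the untreated libraries (edgeR adjusted p 0.0610 to 0.165). In DMSO over untreated it fell (-1.06 ± 0.33, edgeR adjusted p = 0.0274), a call lost without DMSO library 3 or either untreated library (edgeR adjusted p 0.0520 to 0.252) and with no filter or DESeq2 (0.0536 to 0.128). Plec, the plakin plectin, averaged 345 ± 43.2 CPM with benzamil, 274 ± 24.7 CPM with DMSO and 540 ± 266 CPM in untreated skin. It fell in DMSO over untreated (-0.99 ± 0.27, edgeR adjusted p = 0.0117; -0.25 and 0.658 without untreated library 1; 0.0654 to 0.0819 with no filter or limma) and was at 0.32 ± 0.20 in benzamil over DMSO (edgeR adjusted p = 0.267).

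**Figure D3:**
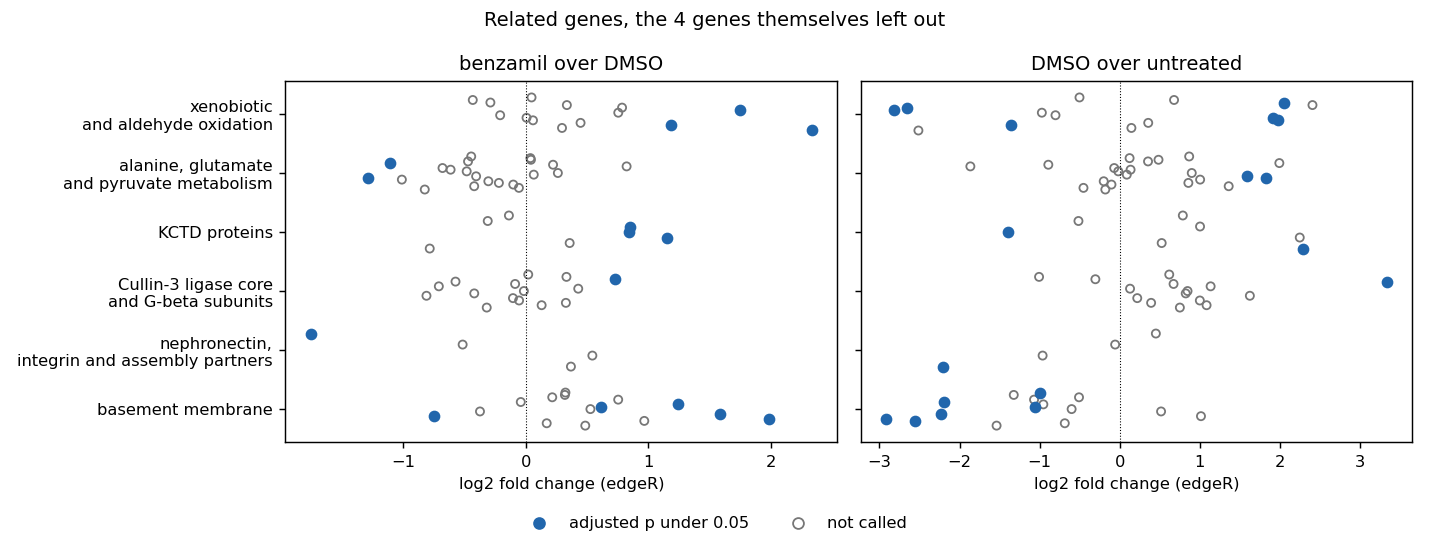
Log2 fold change (edgeR, x axis) of every tested gene of the pathway lists, 1 point a gene and 1 row a list, with called genes filled (adjusted p under 0.05) and the 4 genes themselves left out. The 6 called basement membrane genes in DMSO over untreated are lower there (1 call without untreated library 1), and the 2 called genes of alanine, glutamate and pyruvate metabolism in benzamil over DMSO are both lower.

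In skin pieces measured whole, fewer cells of a type and less RNA per cell cannot be told apart, and markers of several cell types also differed between the groups. All 11 sebaceous gland markers were measured, with a summed level of 5557 to 9389 CPM in benzamil, 3062 to 4446 CPM in DMSO and 6277 to 8866 CPM in untreated libraries, so the DMSO libraries lay below all others, as for the 4 genes. Of these markers 6 were called higher in benzamil over DMSO, in DMSO over untreated 1 was higher and 2 lower, and in benzamil over untreated 3 were higher. Skeletal muscle markers (12 of 14 measured) ranged over 700 to 1630 CPM in benzamil, 200 to 1199 CPM in DMSO and 2962 to 3322 CPM in untreated libraries, with 8 higher in benzamil over DMSO, 9 lower in DMSO over untreated and 2 lower in benzamil over untreated. Fibroblast markers (9 of 10 measured, 7 tested) ranged over 689 to 2221 CPM in benzamil, 526 to 1035 CPM in DMSO and 7941 to 18129 CPM in untreated libraries, with 2 higher in benzamil over DMSO, 6 lower in DMSO over untreated and 4 lower in benzamil over untreated. Both lists stayed below the untreated range in every benzamil library. The part of these cell types in the levels of Fmo2, Gpt, Kctd2 and Npnt was not tested.

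Suprabasal keratinocyte markers (all 6 measured) summed to 36177 to 50316 CPM in benzamil, 12965 to 27800 CPM in DMSO and 12022 to 16094 CPM in untreated libraries. With benzamil this sum lay above the untreated range, unlike the 4 genes, but the markers were split. In benzamil over DMSO 3 were called higher, in DMSO over untreated 3 higher and 1 lower, and in benzamil over untreated 3 higher. The lower one was Flg2, which was lowest with DMSO as the 4 genes were, while Krt1 and Krt10 were among the higher ones in DMSO over untreated. Basal keratinocyte markers (all 5 measured) ranged over 12207 to 14636 CPM in benzamil, 13588 to 17633 CPM in DMSO and 8449 to 9454 CPM in untreated libraries. Hair follicle and arrector pili markers were represented by 4 of 11 genes (Krt79, Lgr6, Sox9, Cd34), at 543 to 768 CPM in benzamil, 420 to 603 CPM in DMSO and 353 to 409 CPM in untreated libraries. The listed muscle gene Des was not among the joined genes, so this sum holds no marker of the arrector pili muscle. Neutrophil markers (5 of 8 measured, with S100a8 and S100a9 also in the inflamed list) ranged over 202 to 4036 CPM in benzamil, 10534 to 17387 CPM in DMSO and 42.3 to 204 CPM in untreated libraries. Endothelial markers were not among the joined genes (0 of 7), and T cell and smooth muscle lists had 1 gene each. Benzamil library 4 had the highest inflamed keratinocyte level of its group, 9426 CPM, and also the highest Gpt and Npnt levels of its group. It was also the shallowest benzamil library, at 132820 effective reads. Benzamil library 3 had the lowest inflamed keratinocyte level of the group, 1246 CPM, and the highest Fmo2 and Kctd2 levels. No relation between these levels was tested.

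**Figure D4:**
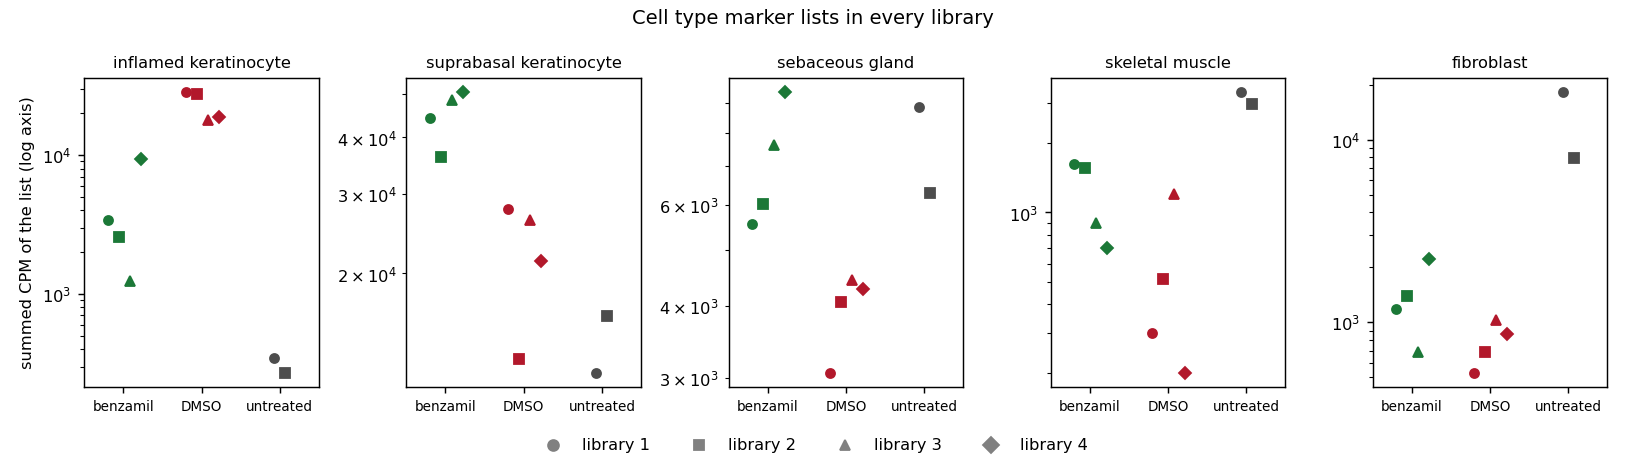
Summed level of 5 cell type marker lists in every library (CPM, log axis), with symbols for library number. The inflamed keratinocyte list is highest in DMSO (17810 to 28251 CPM), and the sebaceous list is lowest there (3062 to 4446 CPM).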

How the data were processed

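RNA of 10 skin libraries, all labelled ear, was measured from 500 ng input with a lexogen 3′ mRNA kit with molecular identifiers and a 150-cycle MiSeq kit, per the labels' protocols. STAR, featureCounts, DESeq2 and mm10 are named in the submitters' processing notes, their versions being not given in the sources used here. It is not stated if identifiers were collapsed, so counting intervals cover counting error only.

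The authors deposited 2 tables of variance-stabilised log2 values, normalized separately (benzamil with DMSO, 10653 genes; untreated with DMSO, 9820 genes). Result tables of DESeq2, likewise deposited by the authors, hold a mean signal (normalized counts), log2 fold change, Wald score and p-value; the untreated one is coded untreated over DMSO. A deposited count table carries 61533 human identifiers and 0 mouse ones and entered no comparison.

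The planned count test needs counts, so the log2 values were inverted to whole reads; 100% came out whole within 0.01 reads and 39116 of 39116 DMSO values were equal in both tables. The 9779 genes in both tables were joined, leaving out 874 and 41. Identifiers were looked up in GENCODE M21 (9698 of 9779 found). All 10 libraries entered 1 edgeR 4.0.16 quasi-likelihood fit (R 4.3.3) with TMM and filterByExpr (minimum count 10, total 15), which kept 5245 genes; the common biological coefficient of variation was 0.195. Each SE was taken from the log2 fold change and its F statistic. Unadjusted p was under 0.05 for 1851 genes in benzamil over DMSO, 1744 in DMSO over untreated and 992 in benzamil over untreated. The fit was tested on simulated data with changes placed in the benzamil libraries only, among the more abundant genes. That test does not cover DMSO over untreated or the least abundant genes. CPM uses the joined genes' totals and TMM; likeness uses log2 CPM with a prior count of 2.

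Named were the 4 genes, the 5 genes most like each, up to 4 genes a list (called in most comparisons, ties by summed p) and 8 fixed relatives and partners. The 4 genes, lists and tests were chosen with earlier results of these data known. Alternatives were RLE factors, totals alone, totals without ribosomal RNA, no filter, a replicate block, only the groups compared, DESeq2 1.42.0, limma 3.58.1 on the deposited log2 values, and leaving out each library.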

Additional observations from a re-analysis of the deposited data

Results flagged for a closer look

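The highest DMSO library for Kctd2, library 3 at 41.8 CPM, stood apart from the other DMSO libraries: its gap to the nearest of them was 0.834 of the group's range, just past Dixon's critical value for 4 samples. Chance gives such a gap in about 1 of 20 groups. The benzamil and DMSO groups of all 4 genes were searched at both ends, and only this gap passed, so it is less rare over the whole search. The search used CPM and not log2 values, so the flag holds for the CPM scale only. Without that library Kctd2 was 2.93 in benzamil over DMSO, against 2.60 with it (log2 scale, edgeR).

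The deposited count table with human identifiers holds 6 counts over the 10 libraries on FMO2, GPT, KCTD2 and NPNT, with 2 each in benzamil, DMSO and untreated libraries, and FMO2 and GPT are at 0 in all. The groups' totals in that table are 119375 counts with benzamil, 270713 with DMSO and 19146 in untreated libraries. No level of the mouse genes is drawn from it.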

How the results depend on the processing

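The number of called genes kept within 1.5 times its value in every alternative for the 3 comparisons except limma on the deposited log2 values, which called 2897 genes in DMSO over untreated (2371 higher, 526 lower) against 963 in edgeR, and some single-library omissions; the cause was not tested. Leaving out each library in turn gave 650 to 1391 calls in benzamil over DMSO (1154 with all; 650 without DMSO library 1), 439 to 980 in DMSO over untreated (439 without untreated library 1) and 100 to 224 in benzamil over untreated (212 with all; 100 without untreated library 1). Totals alone moved the median log2 fold change of all genes in benzamil over DMSO to -0.24, against -0.01 with TMM, so that 21.6% of calls were higher, against 45.1%. In benzamil over untreated it made 38.6% of calls higher, against 60.4%. Under totals alone Fmo2, Gpt, Kctd2 and Npnt were at 3.08, 2.17, 2.33 and 2.30 in benzamil over DMSO. DESeq2 called 859, 761 and 180 genes in benzamil over DMSO, DMSO over untreated and benzamil over untreated. The replicate block gave 1060, 972 and 146 calls and 3.35, 2.43, 2.58 and 2.51 for the same 4 genes in benzamil over DMSO. Same-numbered libraries did not deviate together (correlations of -0.118 to 0.116). Many genes have few reads, which weakens such correlations, so they do not settle if the numbers pair the libraries. Of the calls on named list genes, 5 of 12 in benzamil over DMSO, 3 of 14 in DMSO over untreated and 0 of 3 in benzamil over untreated held in every alternative run. Limma could not compare benzamil with untreated, whose tables were normalized separately, and Npnt was below the filter with only the benzamil and DMSO libraries. The 2 untreated libraries had 71144 to 74614 reads, so that 1 read stands for 12.8 to 14.1 CPM there.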
